A study of Homo sapiens with 28 samples.

Results

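MDST8 clone 3.5 is a TWIST1 knockout colony of a human colorectal cancer line, and its 3 RNA-seq libraries were compared with 3 libraries of the WT parent line. The 6 libraries were chosen by their labels (clone TG3, replicates 5A, 5B and 5C, and WT, replicates A, B and C), out of 28 samples in the series, 24 RNA-seq libraries and 18 RNA-seq libraries of MDST8. MDST8 is a colon cancer line of the mesenchymal CMS4 class, grown in DMEM with serum. The study made knockout clones by electroporating Cas9 and guide RNAs against TWIST1 and growing single cells into colonies, and asked which genes depend on TWIST1. WT cells carry no edit and no group received a drug. Clones 1.1, 2.2, 3.2 and 3.6, with 3 libraries each, come from the same WT line, and clones 3.2 and 3.6 share the label TG3 with clone 3.5. Clone 3.5 is 1 clone, so what the knockout did and what was already particular to its founder cell cannot be told apart. The labels do not say that replicates were separate cultures, so p-values measure the spread between these libraries only.

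TWIST1 is a basic helix-loop-helix transcription factor that binds E-box DNA and is best known as a driver of epithelial-mesenchymal transition (EMT). In EMT, epithelial cells lose junction proteins such as cadherins and desmosomal proteins, and gain matrix production, migration and contractile or stress-fibre genes. In colorectal cancer a mesenchymal expression state marks tumors with abundant matrix and poor outcome.

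Values are CPM, fragment counts scaled to a common library size with TMM factors, unless given as raw counts of sequenced fragments. CPM is not divided by gene length, so levels are compared between libraries and not between genes. Fold changes are log2 of clone 3.5 over WT, with the standard error of edgeR's quasi-likelihood fit. A gene is said to have risen or fallen, or to be called, where its log2 fold change lay beyond 0.58 in either direction and its p, adjusted by Benjamini-Hochberg over all 13706 genes tested, was below 0.05. In bulk RNA, fewer cells expressing a gene and less RNA per cell cannot be told apart. Total counts ran from 18502364 to 19382787 in WT and from 17252883 to 20180742 in clone 3.5. The share of counts from mitochondrially encoded genes was 2.4 to 3.05% in WT and 3.89 to 4.37% in clone 3.5, the highest range of the 6 MDST8 groups apart from an overlap with clone 3.2 (2.80 to 4.02%). The 10 most abundant genes took 5.52 to 5.84% of counts in WT and 6.97 to 7.15% in clone 3.5.

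TWIST1 mRNA itself (hg38 chr7:19020991-19117636, minus strand) stayed close to WT in clone 3.5. It was at 45.1, 52.5 and 40.5 CPM in WT replicates A, B and C, and at 37.3, 43.6 and 40.7 CPM in clone 3.5. The groups overlapped, and the log2 fold change of -0.18 (SE 0.07, edgeR adjusted p = 0.0256) did not reach the threshold. Gene counts do not show whether the transcript carries an edit, so the mRNA level does not check the label of a clone made by cutting the coding sequence. Clone 2.2 had 28.5 to 30.5 CPM and clone 3.2 had 50.9 to 57.5 CPM, so clone 3.5 lay between them. Few other EMT transcription factors were called. Of 17 listed, 13 were tested, 0 rose and 2 fell, with a list median of -0.16 against -0.0002 over all tested genes. PRRX1, a homeobox factor of mesenchyme, fell from 28.3, 29.8 and 27.2 CPM to 9.23, 11.8 and 11.4 CPM (log2 fold change -1.39, SE 0.08, adjusted p = 1.77e-16). FOXL1, a forkhead factor of intestinal mesenchyme, fell by 1.00 on the log2 scale. ZEB1, a repressor of epithelial genes, had -0.46, its partner ZEB2 had 0.12 and SNAI2 had 0.20, all short of the threshold. SNAI1 had 1 to 5 counts per library and TWIST2 had 0 in all 6.

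Between clone 3.5 and WT, 1541 genes rose (11.2% of those tested) and 994 fell (7.25%). Counts of each gene list below are to be read beside these shares. Of the called genes, 608 rose and 259 fell by more than 2-fold, and 22 rose and 20 fell by more than 8-fold. WT and clone 3.5 libraries did not overlap in CPM for 4370 genes that were higher (31.9%) and 4481 that were lower (32.7%) in clone 3.5, so groups that do not overlap are common here and are given below as a description only. Of 1280 long non-coding RNAs tested 282 rose (22%), beside 10.1% of protein-coding genes. Of 265 processed pseudogenes, which share sequence with their parent genes and may share reads, 53 fell and 5 rose.

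**Figure D1:**
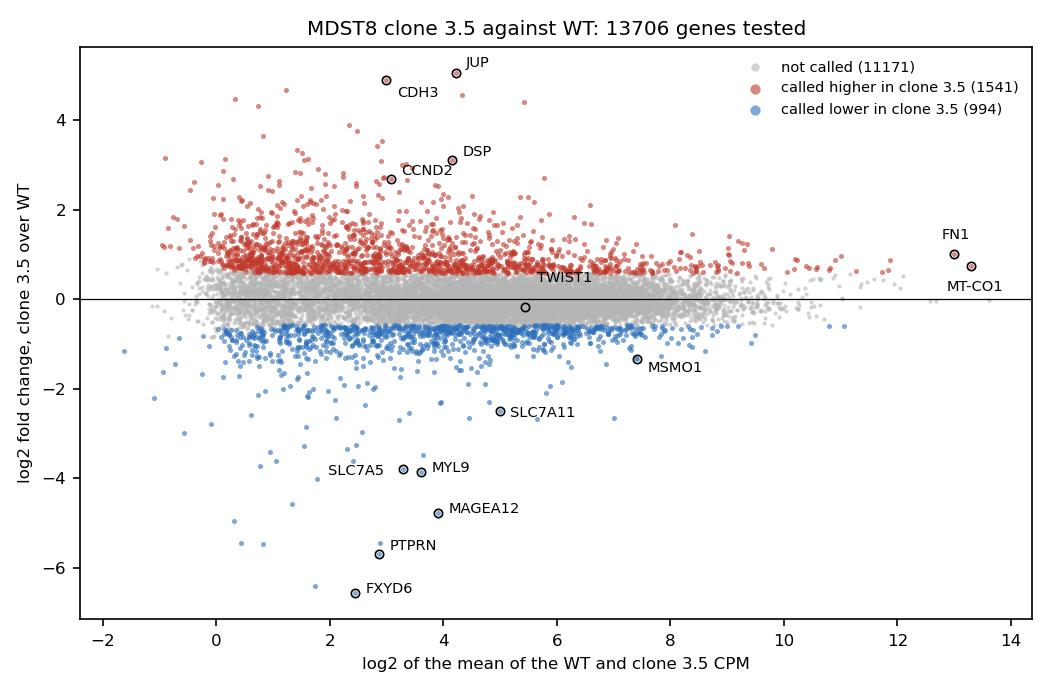
Each point is 1 of the 13706 genes tested, with log2 of the mean of WT and clone 3.5 CPM across and the log2 fold change of clone 3.5 over WT up. Red points are the 1541 genes called higher and blue points the 994 called lower, and the circled genes are described in the text, with TWIST1 near the line at 0 and JUP and FXYD6 at the extremes.

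Among protein-coding genes with at least 5 CPM in every library of the higher group, the junction genes JUP and CDH3 had the largest fold increases. Of 36 epithelial adhesion and splicing genes listed, 12 passed the filter on low counts. Of these 12, 6 rose and 0 fell, with a median of 0.54. The filter took in all MDST8 libraries, so a gene low in WT could pass on its levels in the clones. Members under the filter were not tested. Some of them, picked after their values were seen, had fewer counts in clone 3.5. OCLN went from 7, 4 and 9 counts in WT to 1, 2 and 0. ESRP2 went from 7, 6 and 5 to 3, 0 and 2, and AP1M2 from 4, 3 and 2 to 0, 0 and 0. RAB25 leaned the other way, from 0, 0 and 1 to 2, 1 and 1. JUP, plakoglobin, which links desmosomal and classical cadherins to the cytoskeleton, was at 1.23, 1.12 and 0.915 CPM in WT and at 35.7, 36.2 and 36.3 CPM in clone 3.5 (log2 fold change 5.05, SE 0.14, adjusted p = 1.72e-25). CDH3, P-cadherin, was at 0.587, 0.508 and 0.458 CPM in WT and at 14.6, 15.2 and 16.4 CPM in clone 3.5 (4.88, SE 0.22, adjusted p = 2.05e-19). DSP, desmoplakin, which anchors desmosomes to intermediate filaments, went from 3.09, 3.51 and 4.53 CPM to 31.2, 30.6 and 33.6 CPM (3.10, SE 0.10, adjusted p = 3.48e-23). In all 3 genes every clone 3.5 library stood far above every WT library. MUC1, a membrane mucin (1.97), CXADR, a tight junction receptor (1.39), and PKP3, plakophilin 3 (0.67), also rose. The desmosomal cadherin DSG2 had 0.41 and plakophilin PKP2 had 0.40, short of the threshold.

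Several defining epithelial genes were at or near 0 in both groups. CDH1, E-cadherin, had 0 counts in all 3 WT libraries and 1, 0 and 1 in clone 3.5. EPCAM had 0, 1 and 1 counts in WT and 0, 2 and 5 in clone 3.5, and CDX2, the intestinal homeobox factor, had 0 in all 6. VIL1, LGALS4 and CDH17, further markers of colon epithelium, had at most 3 counts in any of the 6 libraries. Of 25 intestinal identity genes 5 were tested and 0 were called. KRT18, a keratin of simple epithelia, rose from 63.7, 59.6 and 60.4 CPM to 117, 114 and 121 CPM (log2 fold change 0.94, SE 0.05, adjusted p = 1.01e-17), while its partner KRT8 had 0.30 and was not called. VIM, vimentin, the intermediate filament of mesenchymal cells, had 0.34 and CDH2, N-cadherin, had -0.17, neither called. Among markers of other cell types, 0 of 10 leukocyte and 0 of 7 endothelial genes passed the filter. Of 9 fibroblast markers 6 were tested, of which THY1 rose (1.24) and DCN fell (-0.87), and of 6 mesothelial markers 2 were tested, of which CALB2 fell (-2.01). The call of DCN was lost under most alternatives, among them DESeq2 (adjusted p = 0.0654) and leaving out any 1 WT library. WT1, a mesothelial marker under the filter on low counts and picked after its values were seen, had 62, 57 and 55 counts in WT and 0, 5 and 2 in clone 3.5, and was not tested.

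The junction genes had other levels in the other clones. Clones 3.5, 1.1, 2.2, 3.2 and 3.6 share the WT libraries, so levels are given side by side. JUP was at 21.5 to 23.2 CPM in clone 1.1 and at no more than 1.12 CPM in clones 2.2, 3.2 and 3.6. CDH3 was at 5.10 to 5.79 CPM in clone 2.2, at 1.35 to 2.24 CPM in clone 3.6 and at no more than 0.941 CPM in clones 1.1 and 3.2. DSP was at 25.1 to 27.2 CPM in clone 3.6 and at 11.3 to 12.8 CPM in clone 3.2. Clone 3.5 was the clone in which JUP, CDH3 and DSP were all above 10 CPM.

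**Figure D2:**
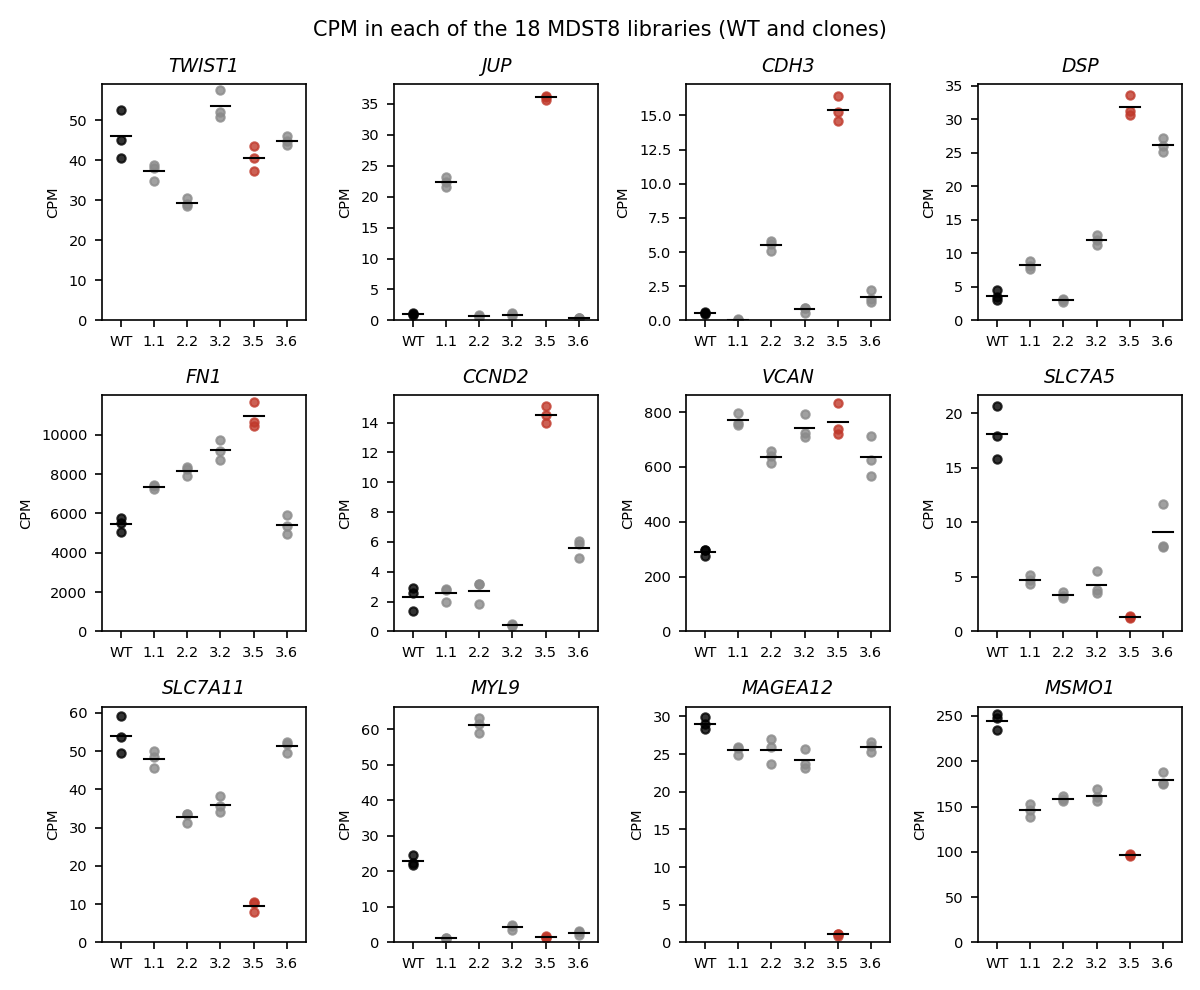
CPM (vertical axes, from 0) of 12 genes in each of the 18 MDST8 libraries, grouped as WT (black), clones 1.1, 2.2, 3.2 and 3.6 (grey) and clone 3.5 (red), with a line at each group's mean. JUP, CDH3 and CCND2 are highest and SLC7A5, SLC7A11, MAGEA12 and MSMO1 lowest in clone 3.5, while TWIST1 in clone 3.5 overlaps WT.

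By the same measure, the largest increases after JUP and CDH3 were in secreted and signalling genes. PRSS33, a serine protease, went from 2.61, 1.37 and 0.966 CPM to 37.7, 38.8 and 38.9 CPM (log2 fold change 4.55, SE 0.13, adjusted p = 1.95e-25). C3, the central complement component, went from 4.11, 4.98 and 2.59 CPM to 70.2, 88.4 and 86.1 CPM (4.39, SE 0.13, adjusted p = 8.02e-25). Neither gene overlapped between groups, and both were also above WT in clone 3.2, with 20.2 to 21.2 CPM of PRSS33 and 60.8 to 74.9 CPM of C3. Next came MUC3A, a membrane mucin (3.89), RGS16, which shortens G protein signals (3.76), ZNF208, a zinc finger gene with close paralogs (3.53), ANOS1, the secreted anosmin (3.41), PLXDC1 (3.11), KCNAB2, a potassium channel subunit (3.07), and AK4, a mitochondrial adenylate kinase (3.02). By difference in CPM rather than by fold, FN1, the lysosomal saposin precursor PSAP and 5 mitochondrially encoded genes were among those that rose most.

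The largest decreases included genes that were almost silent in clone 3.5. FXYD6, a modulator of the sodium-potassium pump, had 203, 218 and 205 counts in WT and 0, 3 and 3 in clone 3.5 (log2 fold change -6.56, SE 0.25, adjusted p = 1.26e-21). NME6, a nucleoside diphosphate kinase family member, had 126, 114 and 142 counts in WT and 0, 2 and 2 in clone 3.5 (-6.40, SE 0.34, adjusted p = 1.77e-17). PTPRN, a phosphatase-like protein of secretory granules, went from 15.4, 13.6 and 14 CPM to 0.411, 0.212 and 0.202 CPM (-5.70, SE 0.24, adjusted p = 3.59e-20). At so few counts the size of a fold change depends on the prior count of the fit. FXYD6 was equally low in clone 2.2 (0.0974 to 0.106 CPM) and higher than WT in clone 3.6 (28.0 to 34.5 CPM). BDH1, a ketone body dehydrogenase (-4.01), CBLN2, a secreted synaptic organizer (-3.61), DNAJC15, a mitochondrial co-chaperone (-3.49), and TNFAIP2, a TNF-induced gene (-3.26), followed.

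A further pair of genes with large decreases sits side by side on the X chromosome. CSAG1 (chrX:152727484-152733735, minus strand) went from 13.8, 15.1 and 14.5 CPM to 0.353, 0.264 and 0.354 CPM, and MAGEA12 (chrX:152733757-152737669, plus strand), a cancer-testis antigen, went from 29.0, 29.9 and 28.3 CPM to 1.18, 0.846 and 1.16 CPM. Their log2 fold changes were -5.46 (SE 0.18, adjusted p = 4.09e-23) and -4.77 (SE 0.12, adjusted p = 2.78e-26). In the other 4 clones CSAG1 was at 8.68 to 12.2 CPM and MAGEA12 at 23.2 to 26.9 CPM, so the near loss was seen in clone 3.5 among the 6 groups. MAGEA6, chosen after its values were seen as a nearby family member, rose instead, from 24.6, 25.4 and 26.0 CPM to 48.0, 56.4 and 50.7 CPM (log2 fold change 1.03, SE 0.08, adjusted p = 7.05e-14). These families have near-identical copies, so the assignment of reads to single members is uncertain.

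Matrix genes moved in both directions. Of 34 matrix glycoproteins and matricellular proteins tested, 9 rose and 9 fell, with a median of 0.07. FN1, fibronectin, the largest difference in CPM of any protein-coding gene that rose, went from 5068, 5498 and 5766 CPM to 10467, 10663 and 11664 CPM (log2 fold change 1.01, SE 0.05, adjusted p = 2.54e-18). VCAN, the proteoglycan versican, went from 277, 297 and 297 CPM to 739, 722 and 833 CPM (1.40, SE 0.06, adjusted p = 9.25e-21). IGFBP7, a secreted binder of insulin-like growth factors, went from 15.5, 15.7 and 15.5 CPM to 51.6, 48.5 and 52.4 CPM (1.71, SE 0.06, adjusted p = 3.55e-22). CCN3 (1.39), the latent TGF-beta binding protein gene LTBP3 (0.90) and TNC, tenascin (0.75), rose as well. Every clone 3.5 library lay above every WT library for FN1, VCAN and IGFBP7.

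The matrix genes that fell included SPON2, the spondin that the study follows as a TWIST1 target. SPON2 (chr4:1166932-1208962, minus strand) went from 6.24, 8.79 and 7.27 CPM to 2.59, 3.12 and 3.34 CPM (log2 fold change -1.30, SE 0.20, adjusted p = 6.87e-07). The groups did not overlap, and the level in clone 3.5 was above those of clones 1.1 (0.316 to 0.798 CPM) and 2.2 (0.195 to 0.582 CPM) and below that of clone 3.6 (3.74 to 5.13 CPM). SPON2 lies on chromosome 4, whose genes were lower as a whole in clone 3.5, as described further on. Before 50 Mb, where SPON2 lies, the median log2 fold change over WT was -0.25 in clone 3.5 and -0.26 in clone 2.2. It was -0.04 in clone 1.1, 0.02 in clone 3.2 and 0.05 in clone 3.6. The part of the chromosome in the fall of SPON2 was not tested. FBLN5, an elastic fibre protein, went from 9.01, 8.94 and 8.90 CPM to 0.823, 1.06 and 0.759 CPM (-3.34, SE 0.25, adjusted p = 1.34e-13). THBS1, thrombospondin 1, went from 857, 882 and 1000 CPM to 505, 434 and 447 CPM (-0.98, SE 0.06, adjusted p = 6.81e-17). SPP1, osteopontin, fell by 0.79 and IGFBP3 fell by 1.09 on the log2 scale.

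Of 20 collagens tested 6 rose and 3 fell, among them COL22A1 (1.5), COL6A1 (0.68) and the basement membrane chain COL4A1 (0.66) upward, and COL5A2 (-0.96) and COL8A1 (-0.77) downward. Of 17 integrins 5 rose and 0 fell, led by the collagen receptors ITGA11 (1.61) and ITGA10 (1.42). Among 7 laminins, LAMA1 and LAMB2 rose and LAMB3 and LAMA2 fell, and LAMB2 was short of the threshold under limma on unscaled counts (0.53) and without WT replicate A (0.57). LAMA1, a basement membrane chain, was at 45.0, 43.9 and 47.0 CPM in WT and at 111, 107 and 124 CPM in clone 3.5, above each of the other 4 clones, whose highest library had 80.3 CPM. Of 26 matrix proteases and inhibitors 7 rose and 4 fell. LOXL1 (1.18) and LOX (0.81), which crosslink collagen and elastin, rose. F3, tissue factor, fell by 1.32.

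Genes of the YAP and TEAD list fell more often than they rose, although the list median was 0.21. Of 29 genes 9 fell (31%) and 3 rose (10.3%), beside 7.25% and 11.2% of all tested genes. The list holds known targets and also the regulators YAP1, WWTR1, TEAD1, TEAD2, TEAD3 and TEAD4. CCN2, connective tissue growth factor, went from 321, 318 and 333 CPM to 142, 130 and 134 CPM (log2 fold change -1.26, SE 0.04, adjusted p = 3.78e-23). ANKRD1, a nuclear ankyrin repeat protein (-1.95), CCN1 (-0.64) and AXL, a receptor kinase that marks mesenchymal tumor cells (-0.66), also fell. AXL was at 523, 524 and 525 CPM in WT and at 348, 326 and 324 CPM in clone 3.5. NUAK2 (0.77), PTPN14 (0.71) and MYOF (0.63) rose, of which MYOF was short of the threshold by limma on unscaled counts (0.57). Of 24 mesenchymal adhesion and cytoskeleton genes 4 fell (16.7%) and 2 rose (8.33%). MYL9, the myosin regulatory light chain of contractile cells, went from 24.5, 21.9 and 22.5 CPM to 1.59, 1.37 and 1.72 CPM (-3.87, SE 0.13, adjusted p = 4.64e-23), while clone 2.2 had 59.0 to 63.3 CPM. TNS1, a focal adhesion protein (-1.02), and SYNE1, a nuclear envelope linker (-0.76), fell, and ACTA2, smooth muscle actin, rose (0.78).

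Cell cycle genes gave many of the decreases. Of 45 replication genes tested 31 fell and 0 rose, with a list median of -0.74, and in all 45 the clone 3.5 libraries lay below the WT libraries. GINS2, a subunit of the replicative helicase complex, went from 39.1, 39.6 and 39.0 CPM to 16.1, 16.1 and 16.7 CPM (log2 fold change -1.26, SE 0.07, adjusted p = 1.19e-17). RRM2, the ribonucleotide reductase subunit that limits nucleotide supply, went from 437, 424 and 434 CPM to 225, 210 and 206 CPM (-1.01, SE 0.04, adjusted p = 1.03e-21). The origin recognition gene ORC1 (-1.05), the licensing factor CDC6 (-1.01), the helicase subunit MCM2 (-0.99) and thymidylate synthase TYMS (-0.87) fell, while PCNA had -0.37 and was not called. Of 40 mitosis genes 19 fell and 0 rose, with a median of -0.58. The spindle checkpoint gene MAD2L1 (-1.28), the kinetochore genes SPC25 (-1.16) and CENPU (-1.15) and the centromeric histone CENPA (-0.91) led, and CDC20 (-0.56), MKI67 (-0.25) and TOP2A (-0.42) stayed short of the threshold. MYBL2, a transcription factor of proliferating cells, went from 104, 108 and 108 CPM to 31.9, 29.2 and 27.5 CPM (-1.86, SE 0.06, adjusted p = 5.62e-24), below the lowest library of any other clone, 41.4 CPM. MYBL2 is outside the gene lists and was picked after its values were seen.

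Of 20 DNA repair genes tested 7 fell, among them EXO1 (-1.02) and BRCA1 (-0.60). MGMT, which removes alkyl groups from guanine, was the member that rose, from 4.37, 3.66 and 3.76 CPM to 8.64, 10.2 and 9.51 CPM (log2 fold change 1.27, SE 0.12, adjusted p = 4.33e-11). Of 26 p53 target genes 6 rose and 0 fell, with a median of 0.42. BTG2, an antiproliferative gene, led with 1.56, and the cell cycle inhibitor CDKN1A had 0.34 and was not called. The D-type cyclin CCND2 was at 2.88, 2.59 and 1.37 CPM in WT and at 14.5, 14 and 15.1 CPM in clone 3.5 (2.67, SE 0.18, adjusted p = 1.2e-14), whereas CCND1 had 0.46 and was not called.

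Some promoters of the replication and mitosis genes carry short elements known from cell cycle genes, shown here with the 2 called members of the largest fold that hold each. Sequences are the 150 bases before the RefSeq transcription start in GRCh38.p14, 5′ to 3′ on the gene's strand, with the matching letters in capitals. That start can differ from the 5′ end used for promoter peaks further on, by 1119 bp in GINS2 and 21767 bp in CENPA. The E2F element TTTCCCGC, or GCGGGAAA on the other strand, was in the promoter of 7 of 39 replication genes (17.9%) and of 1.5% of all 10304 tested genes with a promoter sequence. The CHR element TTTGAA, or TTCAAA on the other strand, was in 16 of 33 mitosis genes (48.5%) and in 3.74% of all. Among the called members the elements were in 5 of 27 replication genes (18.5%) and 5 of 16 mitosis genes (31.25%). The E2F share was thus near that of its whole list and the CHR share below it. The shares describe the lists, and the elements did not mark the members that fell.
GINS2, chr16:85688955-85689104, minus strand: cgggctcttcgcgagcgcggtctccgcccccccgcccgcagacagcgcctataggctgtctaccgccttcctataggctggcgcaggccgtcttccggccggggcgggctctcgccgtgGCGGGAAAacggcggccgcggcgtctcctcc
TYMS, chr18:657503-657652, plus strand: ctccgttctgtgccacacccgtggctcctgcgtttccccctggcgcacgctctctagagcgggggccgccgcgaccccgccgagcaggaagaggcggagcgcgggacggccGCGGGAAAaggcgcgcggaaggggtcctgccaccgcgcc
CENPA, chr2:26785906-26786055, plus strand: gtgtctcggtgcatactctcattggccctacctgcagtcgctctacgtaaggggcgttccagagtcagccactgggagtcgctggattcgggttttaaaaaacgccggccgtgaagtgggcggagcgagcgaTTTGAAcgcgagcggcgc
DLGAP5, chr14:55191586-55191735, minus strand: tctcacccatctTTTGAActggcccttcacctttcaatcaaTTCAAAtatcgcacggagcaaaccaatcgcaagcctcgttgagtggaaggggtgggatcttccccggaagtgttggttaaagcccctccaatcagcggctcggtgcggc

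The first pair shows the E2F element close to the start in GINS2 and TYMS, and the second pair shows the CHR element once in CENPA and in both orientations in DLGAP5. The E2F letters were in 3.0% of all genes that fell and 0.48% of those that rose, and the CHR letters were in 7.14% and 4.32%. The E-box letters CAGATG, which TWIST1 can bind, were in 5.14% of promoters of genes that fell, 4.89% of those that rose and 3.94% of all. A match is a description of the letters and not a bound site.

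Genes of sterol synthesis fell too. Of 32 cholesterol and fatty acid synthesis genes tested 17 fell and 0 rose, with a median of -0.65. MSMO1, a sterol demethylating oxidase, went from 253, 248 and 235 CPM to 97.8, 94.9 and 96.2 CPM (log2 fold change -1.35, SE 0.04, adjusted p = 3.38e-24). INSIG1, which restrains sterol synthesis and is itself induced when sterols are low, went from 550, 551 and 530 CPM to 246, 246 and 236 CPM (-1.16, SE 0.03, adjusted p = 4.55e-25). HMGCS1, which makes the precursor of mevalonate, went from 219, 215 and 217 CPM to 103, 97.1 and 95.4 CPM (-1.14, SE 0.04, adjusted p = 6.37e-23). SQLE, squalene epoxidase, fell by 0.82. In the fatty acid branch FASN was at -0.06, ACACA at 0.18 and SCD at -0.40, none called. INSIG1 was at 502 to 521 CPM and HMGCS1 at 201 to 212 CPM in clone 2.2, near WT, and at no more than 324 and 123 CPM in clones 1.1, 3.2 and 3.6. The sterol regulatory element TCACNCCAC, or GTGGNGTGA on the other strand, was in the promoters of 1 of 26 listed genes and of 0.514% of all.

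Amino acid transporters held some of the deepest decreases. SLC7A5, the LAT1 transporter of large neutral amino acids, went from 18, 20.7 and 15.8 CPM to 1.41, 1.32 and 1.21 CPM (log2 fold change -3.78, SE 0.19, adjusted p = 2.09e-18). SLC7A11, the cystine-glutamate exchanger xCT, went from 53.6, 49.4 and 59.1 CPM to 10.3, 10.6 and 7.84 CPM (-2.50, SE 0.08, adjusted p = 3.38e-23). SLC7A1, a cationic amino acid transporter, went from 103, 108 and 108 CPM to 40.7, 41.0 and 39.8 CPM (-1.39, SE 0.05, adjusted p = 9.2e-22). The lowest library of the other 4 clones had 3.07 CPM of SLC7A5, 31.2 CPM of SLC7A11 and 48.2 CPM of SLC7A1, each above all 3 libraries of clone 3.5. Across 36 genes of the ATF4 amino acid and stress response 9 fell and 1 rose, with a median of -0.26. The serine pathway enzymes PSAT1 (-0.84) and PHGDH (-0.75), the folate enzyme MTHFD2 (-0.90) and the cystathionine lyase CTH (-1.22) fell, DDIT4 rose (1.13), and ATF4 itself had -0.23 and was not called. SLC7A8, which carries substrates like those of SLC7A5, rose (1.29), as did SLC43A2 (1.55). Of 25 chaperone and unfolded protein response genes 4 fell and 0 rose, among them XBP1 (-0.72) and HSPA8 (-0.61). HSPA8 lost its call without WT replicate C or clone 3.5 replicate C (-0.57 each).

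Interferon and NF-kB target genes changed mostly upward. Of 34 interferon-stimulated genes tested 15 rose and 1 fell, with a median of 0.50. MX2, an antiviral GTPase, went from 7.62, 8.79 and 7.83 CPM to 26.3, 25.3 and 27.9 CPM (log2 fold change 1.71, SE 0.09, adjusted p = 2.86e-18). IFIT2 (1.72), the RNA sensor IFIH1 (1.28) and the transcription factor IRF1 (1.06) rose, USP18, a brake on interferon signalling, fell (-0.83), and MX1 (-0.21) was not called. Of 18 MHC class I presentation genes 4 rose and 0 fell, B2M (0.70) and HLA-E (0.78) among them, and HLA-B had 0.07, not called. Of 26 NF-kB target genes 11 rose and 3 fell, with a median of 0.38. MIR3142HG, the host transcript of a microRNA, went from 1.49, 1.83 and 2.03 CPM to 7.40, 6.03 and 6.68 CPM (1.90, SE 0.16, adjusted p = 3.67e-12), and the chemokine CCL2 (1.23) and the feedback inhibitor TNFAIP3 (1.02) rose. MIR3142HG and TNFAIP3 are among the genes that the study named from its own libraries, described further on. The 3 that fell were TNFAIP2 and the neutrophil chemokines CXCL3 (-1.39) and CXCL8 (-0.96), of which both chemokine genes lie on chromosome 4.

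The response elements of both groups are shown in the same way, with the 2 called genes of the largest fold that hold each. The interferon-stimulated response element, searched on both strands as a pair of GAAA runs with any 2 bases between them, was in 15 of 27 listed promoters (55.6%), in 7 of the 12 called and in 1.26% of all. The NF-kB element, searched on both strands as GGGA and TTTCC with any 1 base between them, was in 8 of 22 listed promoters (36.4%), in 4 of the 13 called and in 0.427% of all.
IFIH1, chr2:162318685-162318834, minus strand: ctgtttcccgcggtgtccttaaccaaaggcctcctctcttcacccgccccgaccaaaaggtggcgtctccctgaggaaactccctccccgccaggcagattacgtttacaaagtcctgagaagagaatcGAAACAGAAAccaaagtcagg
IFI44L, chr1:78620298-78620447, plus strand: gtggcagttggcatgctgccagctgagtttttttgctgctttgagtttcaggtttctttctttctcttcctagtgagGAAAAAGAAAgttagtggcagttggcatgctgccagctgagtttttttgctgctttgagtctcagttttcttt
MIR3142HG, chr5:160468101-160468250, plus strand: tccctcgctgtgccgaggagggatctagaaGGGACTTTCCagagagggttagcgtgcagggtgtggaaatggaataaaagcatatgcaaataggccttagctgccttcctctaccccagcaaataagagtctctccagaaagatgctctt
CXCL3, chr4:74038690-74038839, minus strand: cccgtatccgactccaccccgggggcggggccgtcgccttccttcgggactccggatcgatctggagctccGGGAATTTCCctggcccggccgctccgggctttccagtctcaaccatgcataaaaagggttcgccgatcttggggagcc

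IFIH1 and IFI44L hold the interferon element, and both rose. MIR3142HG and CXCL3 hold the NF-kB element, and MIR3142HG rose while CXCL3 fell. The RefSeq start of MIR3142HG lies 29657 bp from the 5′ end used for promoter peaks further on.

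Of 27 feedback genes of the MAPK pathway tested 8 rose and 0 fell, with a median of 0.46. DUSP6, the phosphatase that switches off ERK, went from 32.4, 29.7 and 28.8 CPM to 64.2, 72.2 and 76.2 CPM (log2 fold change 1.23, SE 0.06, adjusted p = 1.06e-18). EGR1, an immediate early transcription factor, went from 17.1, 17.6 and 10.4 CPM to 34.6, 48.6 and 57.0 CPM (1.64, SE 0.24, adjusted p = 4.99e-07), and its spread within each group was wide. EPHA4 (1.05), PHLDA1 (0.89) and EPHA2 (0.84) rose, while SPRY4 (0.15) and DUSP5 (-0.20) were not called. Of the EGFR family, its ligands and other receptor kinases, 3 of 21 rose (14.3%) and 2 fell (9.52%), beside 11.2% and 7.25% of all tested genes. The ligand EREG fell (-1.46), and the collagen receptor DDR1 (1.17) and RET (1.13) rose. Members under the filter on low counts were not tested, among them 2 further receptor kinases picked after their values were seen. FGFR2, a fibroblast growth factor receptor, had 3, 7 and 1 counts in WT and 92, 75 and 84 in clone 3.5, and ERBB4, a member of the EGFR family, had 2, 2 and 6 in WT and 30, 24 and 20 in clone 3.5.

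Axon guidance genes, which also steer cell migration outside the nervous system, rose in 17 of 38 tested and fell in 3, with a median of 0.39. NTN1, netrin 1, went from 8.48, 7.77 and 7.73 CPM to 30.7, 29.9 and 31.3 CPM (log2 fold change 1.94, SE 0.09, adjusted p = 1.45e-19). Its receptors UNC5A (2.12), DCC (1.28), UNC5B (1.20) and UNC5C (0.74) rose as well. SEMA6B (1.65), PLXNC1 (1.39) and PLXNB1 (1.13) rose, and PLXNA2 (-2.01), PLXNA4 (-1.39) and SEMA3D (-0.63) fell. SEMA3D lost its call without WT replicate C (-0.48) and without clone 3.5 replicate B (-0.56). NTN1 was at 2.89 to 4.15 CPM in clone 1.1 and at 34.8 to 36.8 CPM in clone 3.6, so clones lay on either side of WT.

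Of 20 WNT ligands and receptors tested 4 rose and 1 fell. ROR1, a receptor kinase for WNT5A, went from 4, 2 and 4 counts to 66, 95 and 91 counts (log2 fold change 4.66, SE 0.36, adjusted p = 1.73e-13), and the ligand WNT6 went from 3, 1 and 2 counts to 33, 51 and 51 counts (4.47, SE 0.42, adjusted p = 3.11e-11). The co-receptor LRP5 (1.80) and the receptor FZD3 (0.83) rose, and the ligand WNT7B fell (-1.68). Of 16 WNT target and feedback genes 4 rose (NKD2, PROX1, NKD1 and BMP4) and 3 fell (EPHB3, DKK1 and LEF1), and AXIN2, a general read-out of the pathway, had 0.16 and was not called. In the TGF-beta and BMP list 4 of 37 rose (10.8%) and 2 fell (5.4%), near the 11.2% and 7.25% of all tested genes. Of the Notch genes 3 of 16 rose (18.75%), led by the ligand DLL4 (2.02), and 1 fell (6.25%), HEY1 (-1.17).

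LPAR1, a receptor for lysophosphatidic acid, was at 35.4, 36.0 and 37.9 CPM in WT and at 12.6, 11.6 and 11.4 CPM in clone 3.5 (log2 fold change -1.62, SE 0.08, adjusted p = 7.27e-19). The sphingosine phosphate receptors S1PR1 (-1.32) and S1PR3 (-1.27) fell too. LPAR2 (0.68) and LPAR6 (0.61) rose, so of 13 lysophospholipid genes 3 fell and 2 rose. LPAR6 lost its call under limma on unscaled counts (0.56) and without WT replicate A (0.51). LPAR3, another such receptor, under the filter on low counts, not tested and picked after its values were seen, had 33, 35 and 34 counts in WT and 2, 0 and 0 in clone 3.5. Of 13 ephrins and Eph receptors 3 rose and 3 fell. Of 23 HOX genes 5 rose and 4 fell. HOXB5, HOXB4, HOXB13, HOXB3 and HOXB6 rose by 0.63 to 1.22 and HOXD3, HOXD4, HOXD9 and HOXD8 fell, with -1.08 to -0.59, while none of the tested HOXA and HOXC genes was called. HOXD8 lost its call without WT replicate A (-0.54) and without clone 3.5 replicate A (-0.53). Of 34 hypoxia and glycolysis genes 3 rose (8.82%) and 1 fell (2.94%), both below the shares of all tested genes, and the lactate exporter SLC16A3 rose most (1.37). Among 14 histone genes with polyadenylated transcripts 4 fell, led by H2AJ (-1.93) and H2AZ1 (-1.08), and 3 rose, led by H2BC21 (1.72).

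Of 15 mitochondrially encoded genes 11 rose and 0 fell, with a median of 0.68, alongside the higher mitochondrial share of counts given above. MT-CO1, a cytochrome oxidase subunit, went from 7108, 6954 and 8686 CPM to 13433, 11823 and 12848 CPM (log2 fold change 0.74, SE 0.09, adjusted p = 1.91e-08). The part of RNA quality in this was not tested.

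**Figure D3:**
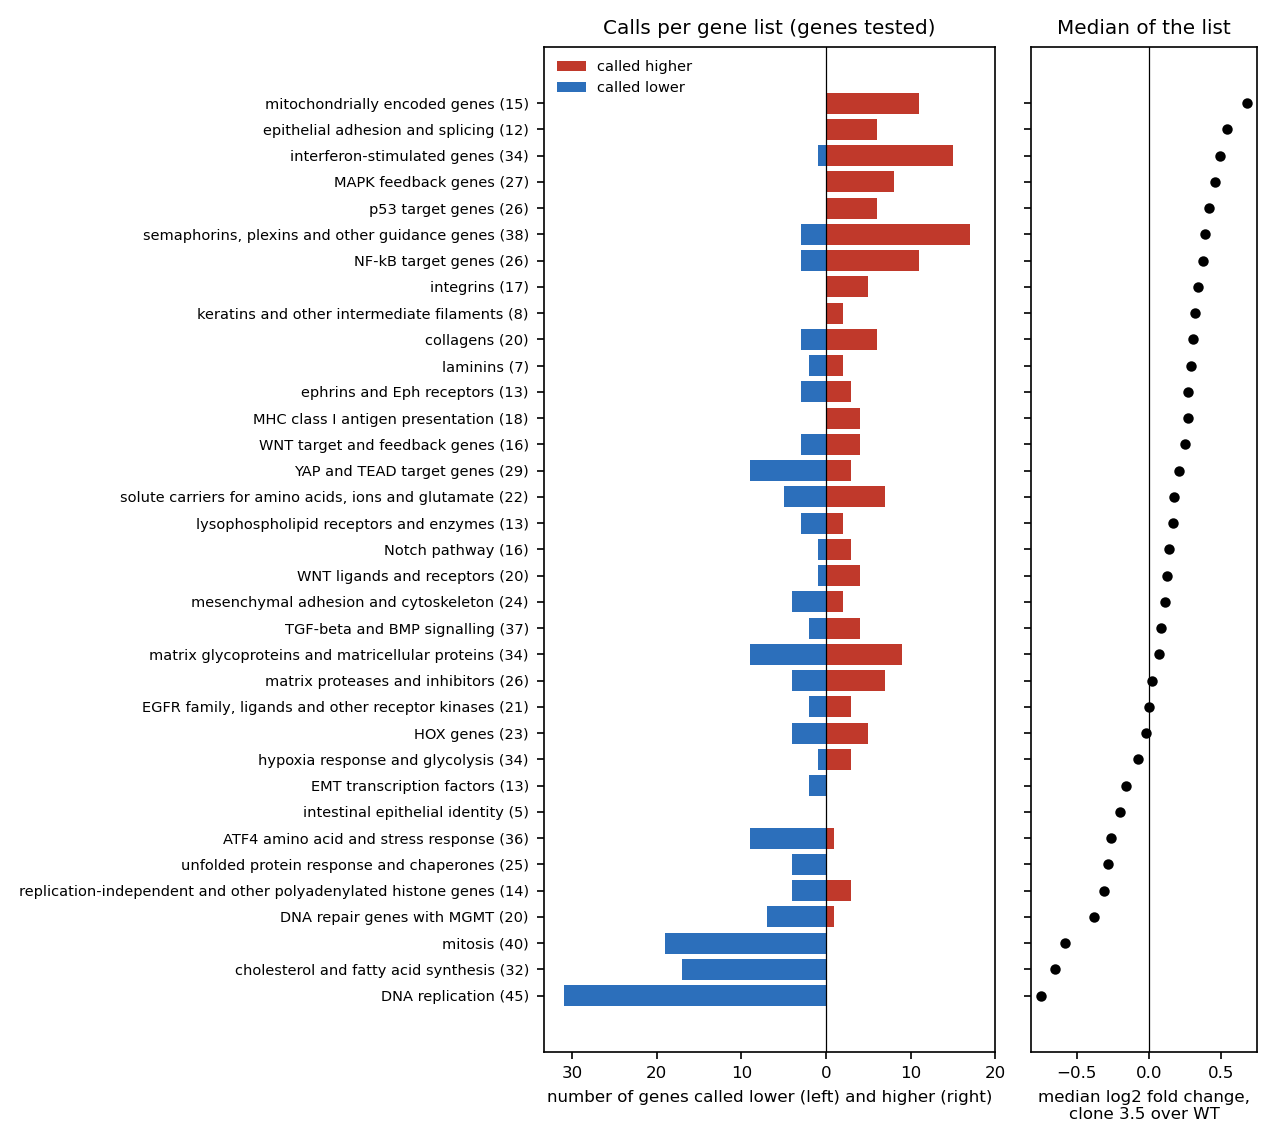
For each gene list (number of tested genes in brackets) the left panel shows how many genes were called lower (blue, to the left) and higher (red, to the right) in clone 3.5 than in WT, and the right panel shows the median log2 fold change of the list. Of the lists plotted, which leave out the genes named by the study and the markers of other cell types, DNA replication is lowest, with 31 called lower and a median of -0.74, and the mitochondrially encoded genes are highest, with a median of 0.68.

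The study named 27 genes as changed by TWIST1 loss, and chose them on its own knockout and knockdown libraries. Which of the MDST8 clones entered that choice is not fully given in the sources used here, and the WT libraries are shared, so the direction of these genes here is not taken as independent evidence. Some of the 27 are also members of the gene lists above and count there, so those list counts are not free of the study's choice. They include MIR3142HG and TNFAIP3 (NF-kB), FOXL1 (EMT factors), ASF1B and DBF4B (replication), and CDC20 and CENPM (mitosis). SLC7A5 and SLC7A1 (ATF4), TNS1 and SYNE1 (mesenchymal), MGMT, F3, LPAR1 and SPON2 are others. All 13 genes named as raised rose, with a median of 1.07, and 13 of the 14 named as lowered fell, with a median of -1.03. KCNAB2 went furthest up, and PODXL2, a sialomucin, went from 17.8, 18.3 and 18 CPM to 60.6, 64.4 and 66.9 CPM (log2 fold change 1.83). PIK3IP1, an inhibitor of PI3 kinase, rose by 1.68 and PDCD4, a translation inhibitor, by 1.07. SLC7A5 went furthest down, and CDC20, the activator of the anaphase-promoting complex, was the gene short of the threshold (-0.56), though it was called by limma on unscaled counts and without clone 3.5 replicate A. SLAIN1 lost its call without clone 3.5 replicate B (0.56), SLC12A2 under limma (0.53) and with no filter on low counts (0.58), and TNFRSF21 under limma (0.54) and without WT replicate C or clone 3.5 replicate B (0.57 each).

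Compared directly with the other clones of the TG3 label, clone 3.5 had 583 genes higher (4.25%) and 625 lower (4.56%) than clone 3.2, and 1045 higher (7.62%) and 1102 lower (8.04%) than clone 3.6. The WT libraries enter these contrasts only through the filter on low counts, the scaling and the shared estimate of the spread. With limma on log2 counts that were not scaled for library size, the share of called genes that were higher went from 48.3 to 26.6% against clone 3.2 and from 48.7 to 22.6% against clone 3.6, so the balance of directions in these contrasts depends on the scaling. Against clones 1.1 and 2.2 it had 588 and 821 genes higher and 627 and 396 lower. The root mean square log2 difference between group means was 0.55 from WT, 0.42 from clone 1.1, 0.43 from clone 3.2, 0.50 from clone 2.2 and 0.52 from clone 3.6.

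A gene was set apart in clone 3.5 if called in the same direction against WT and each of the other 4 clones. This held for 52 genes that were higher (0.379% of those tested) and 42 that were lower (0.306%). The counts depend on the processing, with 25 higher and 56 lower by limma on unscaled counts, 89 higher with no filter on low counts and 94 higher with edgeR's filterByExpr. Of the 52, 41 were protein-coding and 10 long non-coding RNAs. CCND2, at 14 to 15.1 CPM in clone 3.5, had at most 6.06 CPM in the other clones and 0.359 to 0.529 CPM in clone 3.2. MAGEL2, an imprinted gene of the Prader-Willi region on chromosome 15, was at 0.746, 0.356 and 0.508 CPM in WT, at 4.76, 5.18 and 5.62 CPM in clone 3.5 and at no more than 2.32 CPM elsewhere. FABP5, a fatty acid binding protein, was at 5.33, 4.17 and 4.17 CPM in WT and at 12.6, 12.3 and 12.8 CPM in clone 3.5. The nerve growth factor receptor gene NGFR (2.93), the heparan sulphatase gene SULF2 (2.16) and the surface glycoprotein gene CD24 (1.96), picked from the 52 after their values were seen, were set apart as well.

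Of the 42 lower genes, 7 were on chromosome X and 7 on chromosome 4, where 462 and 486 genes were tested. CSAG1 and MAGEA12 led, and ZNF711, an X-linked zinc finger regulator, had 50, 66 and 37 counts in WT and 2, 0 and 1 in clone 3.5. Scaled to the library totals that was a ratio of 50.5 (95% exact interval 17 to 248, counting error only). BEX1, also X-linked, went from 4.16, 5.94 and 4.37 CPM to 0.235, 0.212 and 0.152 CPM. DNAJC15 went from 22.4, 22.7 and 23.9 CPM to 2.53, 2.33 and 1.37 CPM and had 6.49 CPM or more in the other clones. IL31RA, a cytokine receptor (-2.69), the NAD glycohydrolase CD38 (-1.49) and TTC12 (-2.22) were also set apart.

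**Figure D4:**
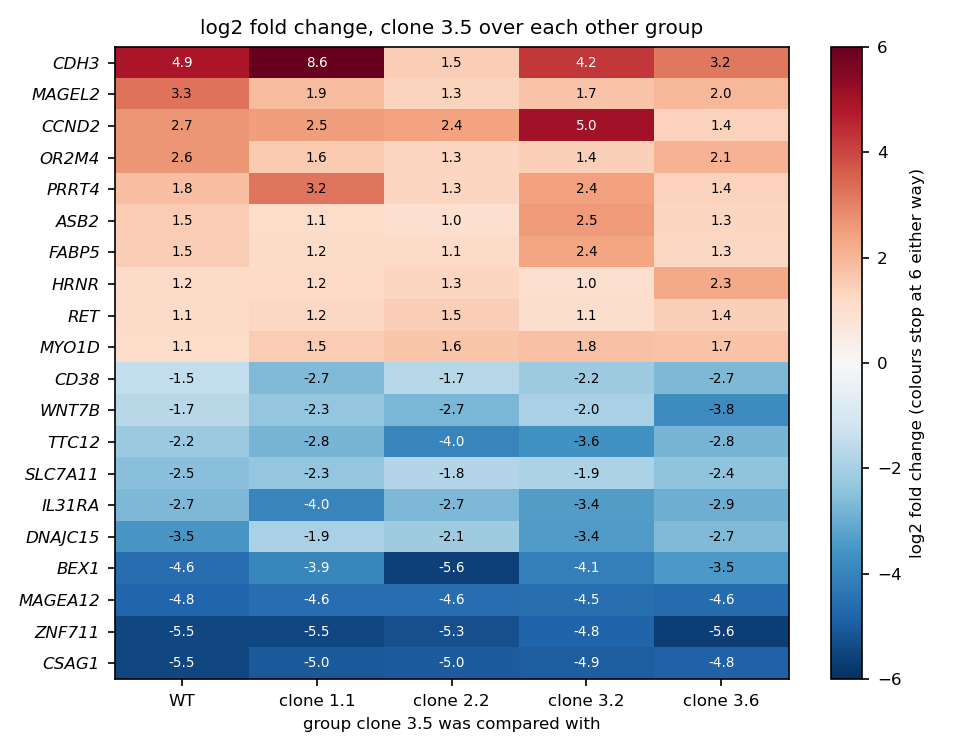
Log2 fold change of clone 3.5 over WT and over each other clone (columns) for the 10 genes in each direction that stood furthest apart (lines of the map), with red for higher and blue for lower in clone 3.5 and the value printed in each cell. CSAG1 and MAGEA12 are lower by a similar amount against all 5 groups, and the value for CDH3 over clone 1.1 depends on the prior count, since that clone had 0 to 0.105 CPM.

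Chromosome 4 stood out from the rest of the genome. The median log2 fold change of its 486 tested genes was -0.42, against -0.0002 over all genes, and 394 of them (81.1%) were below 0. On chromosome 4, 161 genes fell and 29 rose. The shift was larger beyond 50 Mb, where the median of 339 genes was -0.48, than before it, where the median of 147 genes was -0.25. Clone 2.2 had a median of -0.40 over the same genes, and clones 1.1, 3.2 and 3.6 had 0.00, 0.02 and 0.02. Gene counts do not measure DNA copies, and the part of copy number was not tested.

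Several genes described above lie on chromosome 4, among them SPON2, SLC7A11, MSMO1, MAD2L1, CENPU, EREG, CXCL3 and CXCL8. PCDH10, a protocadherin at chr4:133149294-133208606, went from 48.9, 46.7 and 43 CPM to 9.40, 9.36 and 9.61 CPM (log2 fold change -2.29, SE 0.06, adjusted p = 4.21e-25). PCDH10 was picked after its values were seen and fell far more than the median of the chromosome, -0.42. IGFBP7 on the same chromosome rose. Without chromosome 4, 1512 genes rose and 833 fell of 13220. Then 16 of 37 mitosis genes and 15 of 30 cholesterol genes fell (medians -0.57 and -0.61), 8 of 35 ATF4 genes fell, and no replication gene was on this chromosome.

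Chromosomes 18 and 14 had medians of -0.31 and -0.22, and both had medians below 0 in all 5 clones. Of 249 stretches of 10 Mb with at least 20 tested genes, 12 had a median at least 0.4 away from that of all genes. Of these, 9 were on chromosome 4 between 50 and 190 Mb, with medians of -0.63 to -0.44. The 10 to 20 Mb stretch of chromosome 18 had -0.41. The stretch of chromosome 5 that holds the protocadherin clusters, whose genes share exons, had 0.45, beside 0.35 to 0.45 in the other clones. The 20 to 30 Mb stretch of chromosome 15 that holds MAGEL2 had 0.54, beside 0.28 to 0.35 in the other clones.

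**Figure D5:**
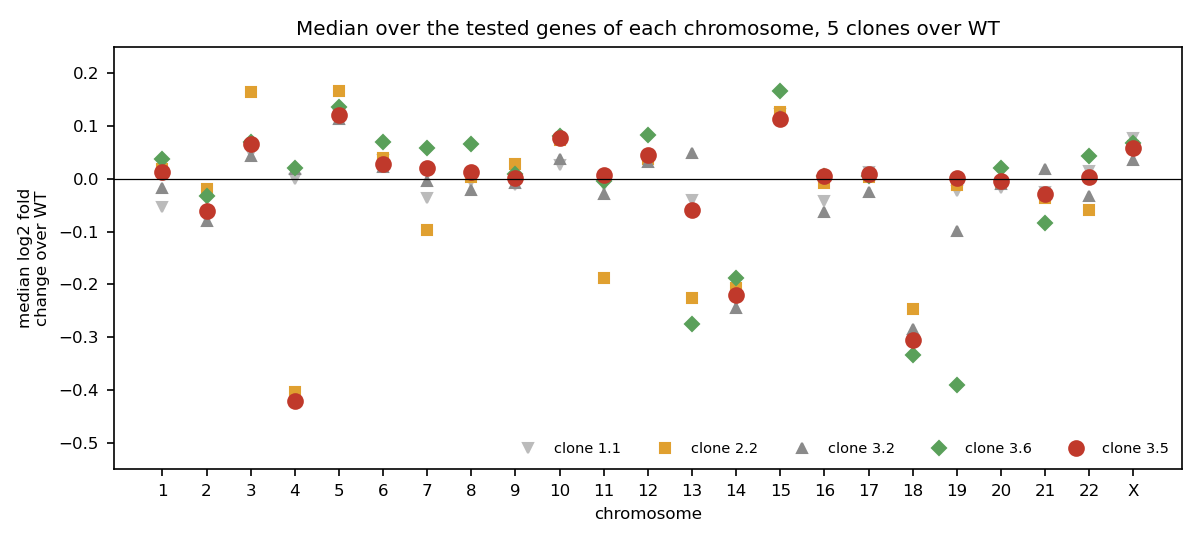
Median log2 fold change over WT of the tested genes of each chromosome (horizontal axis) for clone 3.5 (large red circles) and clones 1.1, 2.2, 3.2 and 3.6 (other symbols). Chromosome 4 is at -0.42 in clone 3.5 and -0.40 in clone 2.2 and near 0 in the other clones, while chromosomes 14 and 18 are below 0 in all 5.

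TWIST1 ChIP-seq of MDST8, a single peak list with no replicate, was set beside these genes. A peak listed by the authors lay within 3000 bp of the 5′ end of 72.8% of genes that rose, 72.6% of genes that fell, 77.3% of genes not called and 76.5% of all tested genes. For genes set apart it was 53.8% (higher) and 76.2% (lower). Within 1000 bp it was 28.8% and 33.3% of these, beside 53.4% of all tested genes, and with peaks at a p of at most 0.001 it was 15.4% and 21.4%, beside 28.3%, so the standing of the lower genes against all genes depends on the window and the threshold. The strongest listed promoter peak of CDH3 had a fold enrichment of 3.66 and a MACS2 q-value of 0.274, and that of SPON2 a q-value of 0.544. This SPON2 peak, chr4:1206293-1206552, lies inside the gene as counted here. For SPON2 the study also used ChIP-qPCR at an E-box upstream of the start, and a promoter reporter. Whether the peak covers that E-box was not tested. DSP, FXYD6, CSAG1, MAGEA12, CCND2, THBS1 and SLC7A11 had no listed peak there.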

How the data were processed

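RNA-seq was measured in 18 MDST8 libraries, of which the 3 of clone 3.5 and the 3 of WT are described. Libraries were prepared with oligo-dT selection. Per the submitters' processing notes and the study's methods, the authors trimmed reads with Trim Galore 0.6.6, aligned them to hg38 with HISAT2 2.1.0, sorted them with SAMtools 1.6 and counted fragments per GENCODE v43 gene with featureCounts 2.0.0. They deposited a raw count per gene and library without normalization. Strand was not used in counting, so a gene and an overlapping or antisense gene cannot be told apart. For ChIP-seq the authors deposited MACS2 2.2.7.1 peaks from 1 library aligned with Bowtie2 2.4.5, each with a score, a fold enrichment (a ratio over background) and −log10 p- and q-values. Per the labels the build of the peaks is hg38, and the use of the input library as a control is not given in the sources used here. Exon lengths and summit offsets, other deposited values in bp, were not used.

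Total counts were 17252883 to 22217009 per MDST8 library, and no column was left unmatched. The filter on low counts took, over the 18 libraries, the geometric mean of RPM + 1, subtracted 1, and required at least 1 (13706 of 62703 genes, 62686 with a symbol). All 18 libraries entered 1 edgeR 4.0.16 quasi-likelihood fit with TMM factors, without a replicate block, and p-values were adjusted by Benjamini-Hochberg over all tested genes. Calls used the thresholds of the study, 0.58 for the size of the log2 fold change and 0.05 for the adjusted p, and the study's own test was limma on log2 counts. The fit was also tested on simulated data with genes changed by known folds. Replicates differed by more than sampling noise and each was counted. Same-lettered replicates of WT and clone 3.5 did not deviate together (r = -0.03, 0.01 and -0.02), so letters were not taken as pairs. Exact permutation of 3 libraries against 3 cannot give a p below 0.10.

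Named genes were TWIST1 and 27 genes that the study names, the 12 protein-coding genes of largest fold in each direction with at least 5 CPM throughout the higher group and no overlap, the 8 of largest CPM difference in each direction, the 10 protein-coding genes furthest apart from all other groups in each direction, and up to 4 called members per list and direction, with other members given as values. Further genes outside these rules were picked after their values were seen and are marked so in the text. Members, lists and motifs were chosen with earlier results of these data known. Promoter sequences come from RefSeq (GRCh38.p14) and were found for 10304 of 13706 genes. A promoter peak overlapped 3000 bp on either side of the 5′ end. The alternatives were DESeq2 1.42.0, limma 3.58.1 on log2(count + 1), RLE factors, no filter, filterByExpr, 6 libraries only, a replicate block, and leaving out each library. For the chromosome stretches and the peaks, other stretch lengths, windows and peak thresholds were tried. Counts without chromosome 4 were added after the data were seen. Scripts ran in R 4.3.3 and Python 3.11.15.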

Additional observations from a re-analysis of the deposited data

Results flagged for a closer look

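Listed here are named genes called in one direction in clone 3.5 and in the other in clone 3.2, both over the shared WT libraries. Only genes also called between these clones, in the direction seen over WT, were kept. Some were named because they differ from every other clone. The direct difference is therefore a description of the kept genes and not a check of them. It is the log2 difference of clone 3.5 minus clone 3.2 from edgeR's fit. The cyclin gene CCND2 had 5.02, the fatty acid binding protein gene FABP5 2.36, ASB2 2.54, PRRT4 2.45 and the myosin gene MYO1D 1.75, all higher in clone 3.5. COL9A3 had -3.79, TTC12 -3.64, PLXNA4 -3.48, IL31RA -3.36, DCN -3.03, CD38 -2.16 and COL8A1 -1.52, all lower in clone 3.5. Mean levels show the opposite moves: CCND2 was at 2.28 CPM in WT, 14.5 CPM in clone 3.5 and 0.443 CPM in clone 3.2, and COL8A1 was at 83.3, 48.9 and 140 CPM.

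The same comparison with clone 3.6 gave 6.91 for ZNF208, 6.55 for JUP and 2.25 for HRNR, higher in clone 3.5. It gave -8.09 for FXYD6, -6.16 for COL9A3, -3.77 for WNT7B and -2.69 for CD38, lower in clone 3.5. JUP was at 1.09 CPM in WT, 36.1 CPM in clone 3.5 and 0.377 CPM in clone 3.6, and FXYD6 was at 10.8, 0.104 and 31.2 CPM. COL9A3, DCN and TTC12 were under 1 CPM in WT and in clone 3.5, so the part of their differences that rests on clone 3.5 is from few counts.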

How the results depend on the processing

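None of the 224 named genes changed sign under the alternatives tried. Against WT, DESeq2 called 1529 genes higher and 965 lower, a replicate block 1536 and 992, no filter 1915 and 1352, and leaving out 1 library at a time 1477 to 1578 and 937 to 1005. The block, which pairs libraries by a letter that does not pair them, also gave 582 and 624 against clone 3.2 and changed no call of a named gene. Limma on log2(count + 1), which does not scale for library size, moved the median of all genes to -0.06 against WT, -0.13 against clone 3.2 and -0.19 against clone 3.6. It gave 342 higher and 945 lower against clone 3.2 (26.6% higher, beside 48.3%), 576 and 1976 against clone 3.6 (22.6% beside 48.7%) and 25 genes set apart as higher beside 56 as lower, where 52 and 42 were set apart with scaling. Against WT it gave 1291 and 1224 (51.3% higher, beside 60.8%). Genes set apart as higher numbered 89 with no filter and 94 with filterByExpr, where more genes were tested. Of 224 named genes, 203 kept their side of the threshold throughout, and the others crossed it under at least 1 alternative. CDC20 gained a call, and ADAM12, COL9A3, DCN, EFNA5, EFNB3, FTL, H2BC5, HOXD8, HSPA1A, HSPA8, LAMB2, LPAR6, MMP12, MT-ATP6, MT-CO2, MYOF, SEMA3D, SLAIN1, SLC12A2 and TNFRSF21 lost theirs. Stretches of 5 Mb left 5 named in place of 12. Promoter peaks within 1000 bp lay at 47.2% of genes that rose, 50.3% of those that fell and 53.4% of all, at p of at most 0.001 at 24.8, 26.9 and 28.3%, and at q of at most 0.05 at 0.519, 0.604 and 0.642%. Depth limits genes near 1 CPM, and 1 clone with 3 libraries limits the rest.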

Other observations

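In the 20 to 30 Mb stretch of chromosome 15, an imprinted region in which a few genes are read from one parental copy, MAGEL2 rose in clone 3.5 by 3.27 on the log2 scale and SNHG14, a long host transcript of small nucleolar RNAs, by 0.92. Both were picked after their values were seen. On the X chromosome GABRA3, which encodes a GABA receptor subunit and lies near CSAG1 and MAGEA12, rose from 2.29, 2.59 and 3.46 CPM to 8.87, 8.99 and 9.92 CPM, while that pair fell. GABRA3, too, was picked after its values were seen.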
